A study of Rattus norvegicus with 6 samples.

Results

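The thin filament genes described here encode the proteins that lie along, stabilize and cap actin filaments. They were the tropomyosins Tpm1, Tpm2, Tpm3 and Tpm4, caldesmon (Cald1), smoothelin (Smtn), leiomodin 1 (Lmod1) and the tropomodulins Tmod1, Tmod2 and Tmod3. They were taken by gene symbol, and 10 of the 10 were found among the 14475 genes of the count table. Vascular smooth muscle (VSM) cells were isolated from the soleus feed artery (SFA), which carries blood to the soleus muscle, of male Fischer 344 rats and grown in culture with serum. RNA was sequenced from 3 cultures of young rats (4 months) and 3 cultures of old rats (24 months), with 1 library for each rat. No genetic change, drug or mechanical stimulation is described for these cultures, so age was the only difference between the groups that the labels give. Values from cultured cells can differ from those of the intact artery, and no source used here gives the passage of the cultures. The comparison of old against young VSM cells asks which genes depend on age in their expression.

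Tropomyosins are coiled-coil dimers that lie end to end along the actin filament and govern which other proteins, myosin among them, can bind it. Caldesmon binds along actin and tropomyosin and slows the myosin ATPase, and smoothelin is an actin-binding protein of contractile smooth muscle. Tropomodulins cap the slow-growing pointed end of the filament together with tropomyosin, whereas the related leiomodins nucleate new filaments. Tpm1, Tpm2 and Cald1 give smooth muscle and nonmuscle isoforms by alternative promoters and splicing, while Tpm3 and Tpm4 are known mainly for their nonmuscle isoforms in cultured cells. Many smooth muscle genes, Acta2 and Lmod1 among them, are driven by serum response factor (SRF), which binds the CArG box, with its coactivator myocardin. The counts are sums over all isoforms of a gene, so smooth muscle and nonmuscle isoforms could not be separated here.

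Since the members include genes known as SRF targets, the promoters were searched for CArG boxes. RefSeq promoter windows (assembly GRCr8) of 250 bases before to 50 bases after a start were found for 9 of the 10 genes, in 12 windows, and no window was found for Lmod1. The CArG box was matched on both strands, either in full or with 1 mismatch, together with the MCAT motif of TEAD factors, spelled GGAATG or its reverse complement CATTCC. The full box was in 0 of the 12 windows, compared with 1.64% of 33469 windows of all genes. With so low a share, 12 windows are too few to show a difference from all genes. A box with 1 mismatch was in 5 of the 12 windows, those of Tpm1, Smtn, 1 of 2 windows of Cald1 and 2 of 3 windows of Tpm3, compared with 20.1% of all windows. GGAATG was in 2 of the 12 windows, those of Tpm1 and Cald1, compared with 14.2% of all windows. None of the matched sites overlapped a site of the other motif. The 250 bases before the start are printed for 4 genes, namely the 2 tropomyosins with the largest difference by age, caldesmon, and Tmod3, which was higher in old VSM cells. The sequence TATAAA was found in the second window of Cald1 alone, compared with 14.2% of all windows. Capitals mark the CArG boxes with 1 mismatch (10 bases) and the GGAATG sites (6 bases), and each line runs 5′ to 3′ toward the start of the gene.
Tpm1, chr8:76543416-76543665, minus strand: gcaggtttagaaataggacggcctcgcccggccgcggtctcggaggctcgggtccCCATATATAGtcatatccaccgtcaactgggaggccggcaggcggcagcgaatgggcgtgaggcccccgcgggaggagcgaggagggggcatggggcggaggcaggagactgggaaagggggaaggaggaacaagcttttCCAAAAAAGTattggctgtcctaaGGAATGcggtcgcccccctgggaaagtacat
Tpm2, chr5:62575727-62575976, minus strand: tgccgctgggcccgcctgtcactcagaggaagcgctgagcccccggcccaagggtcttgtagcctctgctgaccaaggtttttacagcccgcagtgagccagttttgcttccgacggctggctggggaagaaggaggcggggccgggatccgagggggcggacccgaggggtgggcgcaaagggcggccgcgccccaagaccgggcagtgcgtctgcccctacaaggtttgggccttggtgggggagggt
Cald1, chr4:64233006-64233255, plus strand: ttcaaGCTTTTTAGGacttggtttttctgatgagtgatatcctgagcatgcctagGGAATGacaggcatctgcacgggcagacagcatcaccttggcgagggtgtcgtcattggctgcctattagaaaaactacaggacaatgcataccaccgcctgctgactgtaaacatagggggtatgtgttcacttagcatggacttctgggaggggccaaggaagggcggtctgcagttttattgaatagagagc
Tmod3, chr8:85191342-85191591, minus strand: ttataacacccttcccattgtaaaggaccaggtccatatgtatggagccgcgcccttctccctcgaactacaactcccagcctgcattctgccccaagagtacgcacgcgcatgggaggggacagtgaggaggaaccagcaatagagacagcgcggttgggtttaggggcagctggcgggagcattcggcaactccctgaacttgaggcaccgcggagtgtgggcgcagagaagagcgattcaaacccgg
In the Tpm1 promoter the sites with 1 mismatch began 195 and 55 bases before the start and read CCATATATAG and CCAAAAAAGT, and GGAATG began 31 bases before it. In the Cald1 window the sites were GCTTTTTAGG at 245 and GGAATG at 195 bases before the start. The Tpm2 and Tmod3 windows held neither motif. These matches are descriptions of the letters in the windows, and no binding was measured.

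Counts on genes summed to between 44235674 and 59700887 per library. Each of these sums was above the number of reads per sample that the Methods of the paper give as sequencing depth. Low counts (1 to 19) were even in 68.7% to 71.1% of cases, so 2 counts may stand for 1 fragment, and the number of fragments may be lower than the counts. Levels are given as CPM, the count scaled to a common library total, after TMM normalization, a scaling that equalizes the bulk of genes between libraries, and they compare libraries for 1 gene, not genes with each other. Of 7 smooth muscle markers, 7 were in the table, and their summed level was 10863 to 20760 CPM in young and 3251 to 5297 CPM in old libraries. Desmin (Des), a muscle intermediate filament gene, was low, between 0.299 and 2.99 CPM in all 6 libraries. Of the 7 markers, 6 are also among the contractile partners, and Myocd is among the SRF genes. The summed level of 10 of 12 fibroblast markers, most of it from the collagen genes Col1a1 and Col3a1, was 25576 to 34637 CPM in young and 56084 to 76626 CPM in old libraries. For skeletal muscle, 7 of 16 markers were in the table, with 165 to 388 CPM in young and 23.5 to 54.3 CPM in old libraries, while Myod1, Myog, Ckm and Mb were not among the genes of the table. Endothelial markers (6 of 10) summed to 35.1 to 45.2 CPM in young and 32.9 to 44.1 CPM in old, macrophage markers (3 of 10) to 5.13 to 15.97 and 10.4 to 16.8 CPM, Schwann cell markers (5 of 8) to 257 to 347 and 374 to 405 CPM, and pericyte markers (4 of 7) to 904 to 1373 and 667 to 1520 CPM. Most of the Schwann cell sum was Pmp22, with means of 262 CPM in young and 311 CPM in old. Most of the pericyte sum was Pdgfrb, with means of 770.2 CPM in young and 963 CPM in old, whereas Cspg4 had 320 and 121 CPM, with no overlap of the groups and a DESeq2 call as downregulated. Fewer cells of a type and less RNA per cell cannot be told apart in these libraries. The part of other cell types in the differences given here was not tested.

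Of the 10 genes, 8 were lower and 2 higher in old VSM cells, with a median log2 fold change of -0.75, whereas the median over all 14475 genes was 0.02. Tpm2, Lmod1 and Tpm1 had the largest differences, and their old means were 30.7%, 32.1% and 37.9% of the young means. Together the 10 genes took 1.24% to 1.46% of all counts in young libraries and 0.538% to 0.853% in old libraries. For 8 genes (Tpm1, Tpm2, Tpm3, Tpm4, Cald1, Smtn, Lmod1 and Tmod1) each old value was under each young value, a pattern of 14.7% of all genes. For Tmod3 each old value was over each young value, a pattern of 14.5% of all genes, and in Tmod2 the groups overlapped.

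A gene was taken as differentially expressed (DEG) where its adjusted p was under 0.05 and it differed by 1 or more on the log2 scale in either direction. By the quasi-likelihood test of edgeR, DEGs were 0 of the 10 genes and 0.00691% of all genes, and the adjusted p of the 10 genes lay between 0.0557 and 0.751. At an unadjusted p under 0.05, 8 of the 10 were lower and 1 was higher in old VSM cells, compared with 11.5% and 11.2% of all genes. This count of 8 became 5 without young replicate 1 (8.72% of all genes), 5 without young replicate 2 (7.68%), 4 without young replicate 3 (8.45%) and 5 without old replicate 2 (7.81%). It was 7 without old replicate 1 (16.7%) and 6 without old replicate 3 (8.52%). The DESeq2 Wald test called 3 of the 10 as downregulated, Tpm1, Tpm2 and Lmod1, compared with 3.38% of all genes, and 0 as upregulated, compared with 2.3%. The edgeR likelihood ratio test called the same 3 genes, compared with 2.92% of all genes. limma-voom called 0 of the 10 and 0% of all genes, with 8 of the 10 and 12.6% of all genes lower at an unadjusted p under 0.05. Without old replicate 1, edgeR called 4 of the 10 as downregulated, namely Tpm1, Tpm2, Tpm4 and Lmod1, compared with 3.47% of all genes. Without young replicate 1 it called 0 of the 10 and 0.0276% of all genes. DESeq2 called 3 of the 10 without young replicate 1 (2.93% of all genes), young replicate 2 (2.29%), young replicate 3 (2.24%) or old replicate 2 (2.44%). It called 4 without old replicate 1 (5.82%), where Tpm4 was added, and 4 without old replicate 3 (2.75%), where Tmod1 was added. With the filter of 1 CPM in 3 libraries DESeq2 called 3 of the 10 (3.42% of all genes kept), and with the replicate number as a block also 3 (4.63%). The newer quasi-likelihood method of edgeR called 0 of the 10 and 0.297% of all genes.

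**Figure D1:**
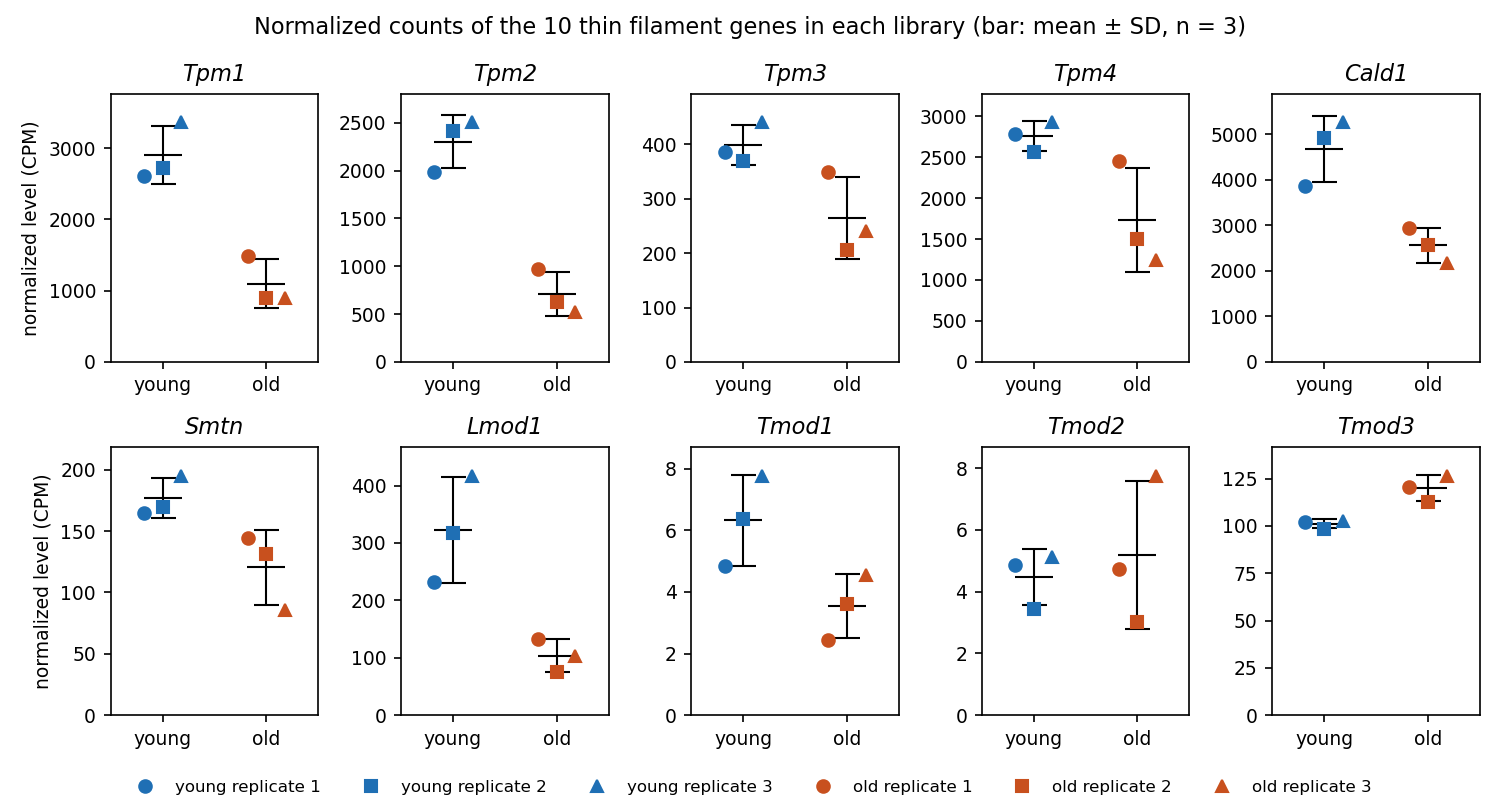
Normalized level (CPM, linear axis from 0) of each gene in the 3 young (blue) and 3 old (orange) libraries, with black bars for mean ± SD (n = 3) and a marker shape for each replicate. The old libraries lie below the young libraries in 8 panels and above them in the panel of Tmod3, and the scales of the panels differ.

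The tropomyosins were all lower in old VSM cells, Tpm1 and Tpm2 by more than Tpm3 and Tpm4. Tpm1 (ENSRNOG00000018184), which encodes α-tropomyosin, had 2611, 2719 and 3362 CPM in young replicates 1, 2 and 3 and 1491, 898 and 902 CPM in old replicates 1, 2 and 3. The groups did not overlap, and old replicate 1 was the old library nearest to the young ones. On the log2 scale Tpm1 differed by -1.40 (standard error, SE, 0.25, edgeR adjusted p = 0.0648), and DESeq2 gave an adjusted p of 4.38e-06. Tpm2 (ENSRNOG00000016731), which encodes β-tropomyosin, had 1989, 2417 and 2506 CPM in young and 969, 629 and 527 CPM in old libraries. The young libraries lay close together, and the highest old library was below the lowest young library by a wide margin. Tpm2 differed by -1.70 on the log2 scale (SE 0.26, edgeR adjusted p = 0.0557), the largest of the 10 genes in size, and DESeq2 gave an adjusted p of 2.12e-08.

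Tpm3 (ENSRNOG00000017441), the gene of γ-tropomyosin, had 386, 370 and 441 CPM in young and 349.8, 205 and 241 CPM in old libraries. Old replicate 1 was just below the lowest young library, and the other old libraries were well below it. In log2 terms Tpm3 differed by -0.59 (SE 0.21, 95% interval -1.10 to -0.08, adjusted p = 0.181 from edgeR). Tpm4 (ENSRNOG00000015496), which gives a short tropomyosin of nonmuscle filaments, had 2786, 2567 and 2926 CPM in young and 2451, 1500.04 and 1249 CPM in old libraries. Again old replicate 1 stood near the young libraries, and the coefficient of variation was 6.54% in young and 36.6% in old. Tpm4 differed by -0.67 on the log2 scale (SE 0.27, 95% interval -1.32 to -0.02, adjusted p = 0.213 from edgeR). Without old replicate 1 it was -1.01 with an adjusted p of 0.0315 from edgeR, which made Tpm4 a DEG, and 4 genes were then called by edgeR instead of 0. DESeq2 gave adjusted p of 0.0808 for Tpm3 and 0.0877 for Tpm4. The coding sequences of the tropomyosin genes are similar, and how reads that match several of them were handled is not given.

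The side-binding genes Cald1 and Smtn were lower in old VSM cells by less than the log2 fold change of 1 set for a DEG. Cald1 (ENSRNOG00000010233) had 3868, 4919 and 5265 CPM in young and 2945, 2569 and 2182 CPM in old libraries. The groups did not overlap, and their relative spread was alike, with a coefficient of variation of 15.5% in young and 14.9% in old. In log2 terms Cald1 differed by -0.87 (SE 0.21, edgeR adjusted p = 0.102). DESeq2 gave Cald1 an adjusted p of 0.000225, and 6.75% of all genes were lower in old VSM cells at a DESeq2 adjusted p under 0.05. Smtn (ENSRNOG00000019451) had 165, 169.8 and 195 CPM in young and 144, 131 and 86.1 CPM in old libraries. The highest old library was close to the lowest young library, and old replicate 3 was the lowest. Smtn differed by -0.55 on the log2 scale (SE 0.20, 95% interval -1.04 to -0.07, adjusted p = 0.186 from edgeR and 0.0930 from DESeq2). Without old replicate 3 the difference in Smtn was -0.36.

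Of the 4 genes of the pointed end, Lmod1 and Tmod1 were lower and Tmod2 and Tmod3 higher in old VSM cells. Lmod1 (ENSRNOG00000051548), the leiomodin of smooth muscle, had 232, 317 and 417 CPM in young and 133, 75.3 and 102 CPM in old libraries. All old libraries were below the young ones, although the young libraries differed among themselves with a coefficient of variation of 28.8%. On the log2 scale Lmod1 differed by -1.64 (SE 0.28, edgeR adjusted p = 0.0643), and DESeq2 gave an adjusted p of 4.72e-06. Tmod3 (ENSRNOG00000032436), the tropomodulin found in most cell types, had 102, 98.4 and 103 CPM in young and 121, 113 and 127 CPM in old libraries. The spread was small in both groups, with a coefficient of variation of 2.35% in young and 5.80% in old, and all old libraries lay above the young ones. Tmod3 differed by 0.25 on the log2 scale (SE 0.08, 95% interval 0.04 to 0.45, adjusted p = 0.172 from edgeR and 0.0766 from DESeq2).

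Tmod1 and Tmod2 are best known from muscle and red blood cells and from neurons, and both had few reads. Tmod1 (ENSRNOG00000009761) had 218, 382 and 382 counts in young and 122, 188 and 243 counts in old libraries, or 4.83, 6.35 and 7.78 CPM and 2.45, 3.62 and 4.53 CPM. The highest old library was just below the lowest young library, and old replicate 1 was the lowest here. In log2 terms Tmod1 differed by -0.84 (SE 0.29, 95% interval -1.54 to -0.13, adjusted p = 0.177 from edgeR and 0.0645 from DESeq2). Tmod2 (ENSRNOG00000010447) had 219, 207 and 252 counts in young and 236, 157 and 416 counts in old libraries. Old replicate 3 was higher than all other libraries, and the rest overlapped. For Tmod2 the log2 fold change was 0.21 (SE 0.37, 95% interval -0.68 to 1.10, adjusted p = 0.751 from edgeR), and it was -0.20 without old replicate 3 and 0.48 without old replicate 2. No difference in Tmod2 was detectable at this depth and spread.

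**Figure D2:**
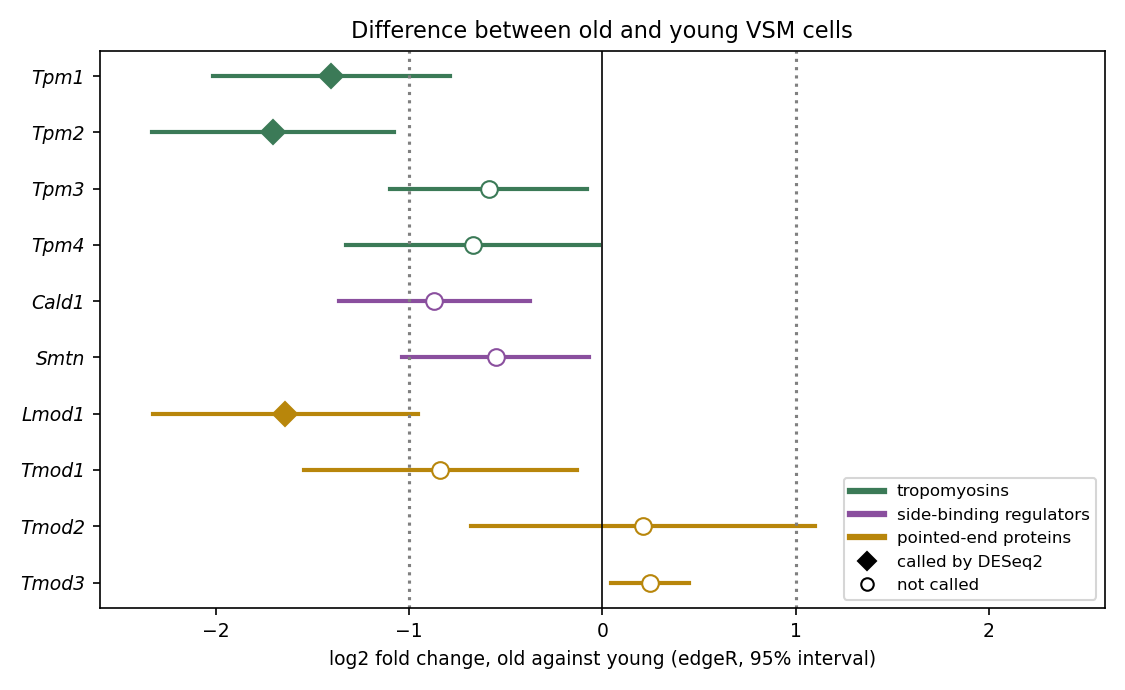
Log2 fold change of each gene in old against young VSM cells with its 95% interval (edgeR), colored by role, with filled diamonds for the 3 genes called by DESeq2 and dotted lines at -1 and 1. Tpm2, Lmod1 and Tpm1 lie at -1.70, -1.64 and -1.40, and Tmod3 lies at 0.25 with a short interval.

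Young replicate 3 was the highest young library for 10 of the 10 genes, and old replicate 1 was the highest old library for 7 of the 10. In the median over the 10 genes, the log2 level relative to the young mean was -0.12, -0.05 and 0.16 in young replicates 1, 2 and 3 and -0.48, -0.87 and -1.07 in old replicates 1, 2 and 3. The summed level of the 7 smooth muscle markers was also highest in young replicate 3 among young libraries and in old replicate 1 among old libraries. Most of this sum in old replicate 1 was Acta2 and Tagln, with 2201 and 2858 CPM. Cnn1 was also highest there among old libraries, whereas Myh11 was lowest there, at 77.9 CPM against 229 and 95.4 CPM. Des was highest in old replicate 2, and Actg2 and Myocd were highest in old replicate 3. The summed fibroblast markers were highest in old replicate 3, at 76626 CPM, against 56084 CPM in old replicate 1. Among young libraries they were highest in young replicate 3, at 34637 CPM, against 33860 and 25576 CPM in young replicates 1 and 2. The part of cell composition in these differences was not tested.

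To ask whether the genes differed by unequal amounts, ratios of counts within a library were compared between the groups, since these do not depend on how libraries are scaled. Differences of the log2 ratio, old minus young, were tested for 16 ratios with an exact two-sided permutation test of 3 libraries against 3, which cannot give a p under 0.10. Adjusted over the 16 ratios, the smallest value was 0.133, so no ratio could pass a threshold of 0.05. In 12 of the 16 ratios the groups did not overlap, and in 4 they did. The ratios share genes, so the 12 are not separate results. The share without overlap among other pairs of genes was not computed.

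Among the tropomyosins, the ratio of Tpm2 to Tpm4 was the steadiest in old libraries. Its log2 value was -0.49, -0.09 and -0.22 in young and -1.34, -1.25 and -1.25 in old libraries. Old VSM cells thus had 49.5% of the young ratio (difference -1.01, exact permutation p = 0.1, adjusted p = 0.133). The log2 ratio of Tpm1 to Tpm4 was -0.09, 0.08 and 0.20 in young and -0.72, -0.74 and -0.47 in old libraries, a difference of -0.71. Old replicate 1, where each of these genes was the highest of the old libraries, did not stand apart from the other old libraries in these 2 ratios. The ratios to Tpm3 behaved alike, with differences of -0.81 for Tpm1 and -1.12 for Tpm2 and no overlap of the groups. In contrast, the log2 ratio of Tpm4 to Tpm3 was 2.85, 2.80 and 2.73 in young and 2.81, 2.87 and 2.37 in old libraries, so that the groups overlapped (difference -0.11, exact permutation p = 0.9). The ratio of Tpm1 to Tpm2 was higher in old libraries, with a difference of 0.31 and no overlap.

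At the pointed end, the log2 ratio of Lmod1, a nucleator, to Tmod3, a capping protein, was 1.19, 1.69 and 2.02 in young and 0.14, -0.58 and -0.31 in old libraries. The old ratio was 27.1% of the young ratio, a difference of -1.88 with no overlap of the groups (exact permutation p = 0.1). For Lmod1 to Tmod2 the difference was -1.76 and for Tmod1 to Tmod3 it was -1.10, both without overlap. For Lmod1 to Tmod1 the difference was -0.78 with overlap, since old replicate 1 had a log2 ratio of 5.76 and the other old libraries had 4.38 and 4.50 (exact permutation p = 0.4). The ratio of Smtn to Cald1 overlapped between the groups (difference 0.29, exact permutation p = 0.2).

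Smooth muscle α-actin (Acta2), the filament protein of the contractile apparatus, was lower in old VSM cells by a log2 fold change of -2.27, a larger difference than in any of the 10 genes, and the 5 ratios to it had higher means in old libraries. Of the 5 ratios to Acta2, that of Lmod1 had the smallest spread in both groups. Its log2 ratio to Acta2 was -4.42, -4.58 and -4.64 in young and -4.05, -3.90 and -3.80 in old libraries, a difference of 0.63 with an SD of 0.11 in young and 0.13 in old. The differences were 0.83 for Tpm1, 1.40 for Cald1 and 1.68 for Smtn, each without overlap (exact permutation p = 0.1). For Tpm2 the difference was 0.52 and the groups overlapped (exact permutation p = 0.2). The actin genes are nearly alike in coding sequence, so the counts of Acta2 are uncertain where reads match more than 1 of them.

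**Figure D3:**
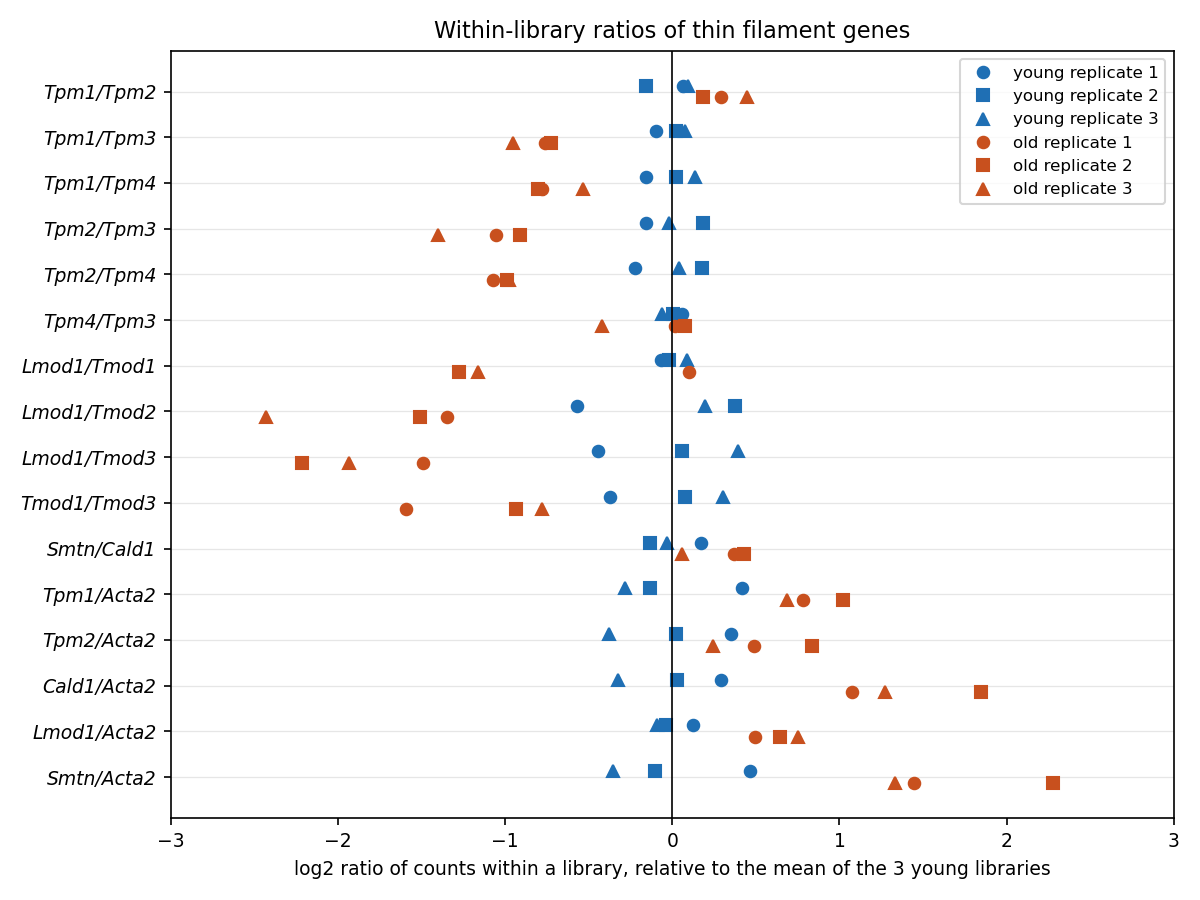
Log2 ratio of the counts of a pair of genes within each library, shown relative to the mean of the 3 young libraries, with blue for young, orange for old and a marker shape for each replicate. Ratios of Tpm1 and Tpm2 to Tpm3 and Tpm4 and of Lmod1 to Tmod3 lie to the left in old libraries, Tpm4 to Tpm3 lies near 0 except in old replicate 3, and ratios to Acta2 lie to the right.

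Other genes of the actin filament were taken from fixed lists. The paralogues Lmod3, Tmod4 and Smtnl2, 3 of 5 listed, were each below 1 CPM in every library, and 0 of the 3 passed an unadjusted p under 0.05 in edgeR or were called by DESeq2. Of 12 smooth muscle contractile partners, 12 were lower in old VSM cells, with a median log2 fold change of -1.71, where 6941 of all 14475 genes were lower. At an unadjusted p under 0.05, 11 of the 12 were lower, compared with 11.5% of all genes, and DESeq2 called 9 as downregulated, compared with 3.38%. The largest differences were in Actg2 (-3.95), which encodes smooth muscle γ-actin, Myh11 (-3.08), the smooth muscle myosin heavy chain, and Cnn1 (-2.56), calponin 1. Actg2 had 377 CPM in young replicate 3 and 52.4 and 66.7 CPM in the other young libraries. The count of 11 was 9 without young replicate 2 (7.68% of all genes), young replicate 3 (8.45%) or old replicate 2 (7.81%). It was 10 or 11 when another library was omitted (8.52% to 16.7%). Without young replicate 3 the median of the list was -1.30. Without young replicate 3 or old replicate 3, 11 of the 12 were lower in direction.

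Of 13 nonmuscle actin filament genes, 13 were lower, with a median of -0.79. At an unadjusted p under 0.05, 9 of the 13 were lower (11.5% of all genes), and DESeq2 called 4 as downregulated (3.38%). These 4 were Vcl (-1.48), which encodes vinculin, the α-actinin genes Actn1 (-1.45) and Actn4 (-1.08), and Zyx, which encodes zyxin. The count of 9 was 6 without old replicate 2 (7.81% of all genes) and 7 to 10 when another library was omitted (7.68% to 16.7%). Of 14 genes of filament capping and turnover, 11 were lower and 3 higher, with a median of -0.24, and 6 were lower at an unadjusted p under 0.05 (11.5% of all genes). DESeq2 called 1 of the 14 (3.38% of all genes), Cfl2 (-1.04), which encodes the muscle cofilin. Dstn (-0.97), the gene of destrin, and Tmsb4x (-0.91), that of an actin monomer-binding thymosin, followed by size and were not called. The capping protein genes Capza1, Capza2 and Capzb, which close the fast-growing barbed end, had log2 fold changes of -0.17, -0.20 and 0.01, and the groups overlapped for each of the 3. The count of 6 was 3 when young replicate 3 (8.45% of all genes), old replicate 2 (7.81%) or old replicate 3 (8.52%) was omitted, and 9 when old replicate 1 was (16.7%). The median was -0.15 without young replicate 3, -0.13 without old replicate 2 and -0.42 without old replicate 1.

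Myocardin (Myocd), the coactivator of SRF in smooth muscle, had 30.2, 41.5 and 110 CPM in young and 9.25, 3.08 and 9.33 CPM in old libraries. Young replicate 3 was the highest of the young libraries, as it was for each of the 10 thin filament genes. Among old libraries Myocd was highest in old replicate 3, just above old replicate 1, whereas old replicate 1 was highest for 7 of the 10 genes. In log2 terms Myocd differed by -3.07 (SE 0.65, edgeR adjusted p = 0.0823), and DESeq2 called it as downregulated. Srf had a log2 fold change of -0.98, and the genes of the myocardin-related coactivators had -0.55 (Mrtfa) and 0.13 (Mrtfb), and 3 of these 4 genes were lower at an unadjusted p under 0.05 (11.5% of all genes), whichever library was omitted. Of 13 genes of the striated thin filament, 8 were in the table, and the 3 with the largest differences among those above 1 CPM were Acta1 (-3.51), Tnnt3 (0.92) and Neb (0.76), which encode skeletal α-actin, a fast troponin T and nebulin. The median over the 8 was -0.31, 2 were lower and 1 higher at an unadjusted p under 0.05 (11.5% and 11.2% of all genes), and DESeq2 called 2 as downregulated (3.38%). The median was -0.13 without young replicate 2, -0.46 without young replicate 3 and -0.04 without old replicate 3. The counts of Acta1 share the uncertainty of Acta2. The skeletal myosin genes Myh1 and Myh2 had means of 95.2 and 39.7 CPM in young and 11.9 and 4.59 CPM in old libraries.

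**Figure D4:**
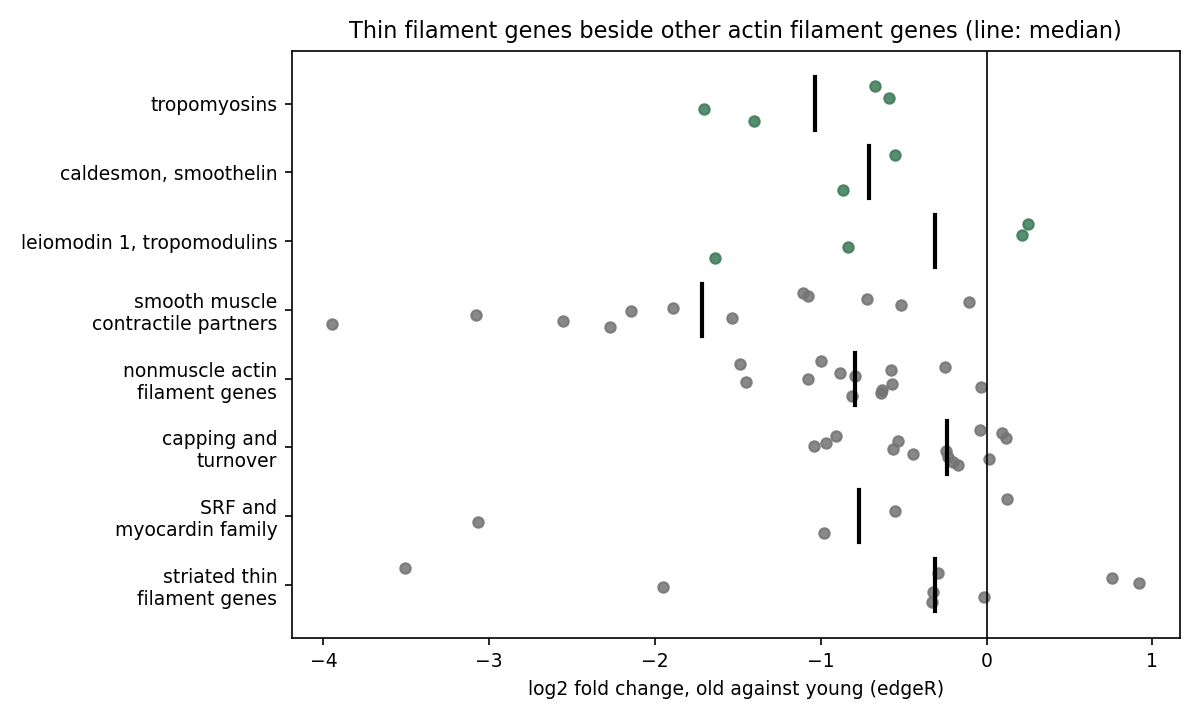
Log2 fold change (old against young, edgeR) of each gene, with the 10 thin filament genes in green by role, other actin filament genes in grey and a vertical line for the median of each list. The medians were -1.71 for contractile partners, -0.79 for nonmuscle actin filament genes and -0.24 for capping and turnover genes. All 8 thin filament genes that were lower lie within the wide range of the contractile partners, -3.95 to -0.11.

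Genes with the most similar profile were sought among 8554 named genes with a mean of at least 10 CPM, by the root mean square difference of the log2 levels over the 6 libraries after each gene was centered on its own mean. For Tpm1 they were Actn1 (0.07), Tagln (0.12) and Jpt2 (0.12), of which Actn1 encodes α-actinin 1 and Tagln the actin-binding protein transgelin. For Lmod1 they were Nexn (0.12), Cnksr3 (0.13) and Rras2 (0.13), and Nexn encodes the actin-binding protein nexilin. For Cald1 they were Ccdc126, Trip6 and Hoxa10, each at 0.08 to 0.09, and for Smtn they were Bag2 (0.05), Pak1 (0.08) and Nup62 (0.10). Among the 10 genes themselves, the closest pairs were Tpm3 with Tpm4 (0.17), Tpm1 with Tpm2 (0.19) and Tpm4 with Smtn (0.19), and the most distant pair was Tpm2 with Tmod2 (1.10). The profiles share the same 6 libraries, and the difference between the age groups is part of each distance.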

How the data were processed

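A stranded mRNA library was made per rat from cultured VSM cells, 3 young and 3 old. The authors deposited raw counts per gene, without normalization. According to the Methods and the submitters' processing notes, reads were trimmed with Trim Galore 0.6.7 and Cutadapt 3.5, aligned with STAR 2.7.10b to Rnor 6.0 and counted with featureCounts (Subread 2.0.8). Each gene of the table reached 10 counts in 3 or more libraries. No source used here gives the counter's options for strand, mates or reads with several matches. The annotation named is RefSeq, while the identifiers of the table are Ensembl. Gene names are those of the table. Tests were run in R 4.3.3 on all 14475 genes with young as the reference: edgeR 4.0.16 (TMM, quasi-likelihood F test, Benjamini-Hochberg), DESeq2 1.42.0 (Wald test) and limma 3.58.1 (voom). The 16 ratios were listed with the tests. For edgeR, the standard error was taken as the size of the log2 fold change over the root of F. The steps were tested on simulated data. Alternatives were a filter of 1 CPM in 3 libraries, RLE or library size scaling, the likelihood ratio and robust tests, halved counts, a block by replicate number, leaving out each library and, added later, edgeR's newer quasi-likelihood method and the lists with each library left out. The members, lists and tests were chosen with earlier results of these data known. All 10 members were named. In other lists up to 3 genes with the largest differences and a mean of at least 1 CPM were named by rule. Zyx, Capza1, Capza2, Capzb, Mrtfb, Myh1, Myh2, Des, Pmp22, Pdgfrb, Cspg4, Col1a1, Col3a1 and the motifs other than the full CArG box were chosen outside that rule, with values in view. P-values measure the spread between cultures of separate rats.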

Additional observations from a re-analysis of the deposited data

How the results depend on the processing

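The directions of 9 of the 10 genes held under each of 16 alternative settings, and Tmod2 was the exception, at -0.20 without old replicate 3 and between that value and 0.48 with each library left out. The number of the 10 genes called as downregulated, 0 in the quasi-likelihood test, was 3 with DESeq2 and 3 with the edgeR likelihood ratio test (where 2.92% of all genes were called), in both cases Tpm1, Tpm2 and Lmod1, and ranged from 0 to 4 with each library left out in turn, with 4 only without old replicate 1. It was 0 with the filter (0.27% of all genes kept), limma-voom (0% of all genes) and edgeR's newer quasi-likelihood method (0.297%). It was also 0 under the other scalings, halved counts and the robust test, with 0.00691% of all genes called for each. The number lower at an unadjusted p under 0.05, 8 with all libraries, ranged from 4 to 7 with each library left out. The cause of these changes was not tested. DESeq2 called 3 or 4 of the 10 genes with each library left out. The median log2 fold change of the 10 genes stayed between -0.91 and -0.64, and the other scalings moved the median of all genes by at most 0.015 on the log2 scale. Same-numbered libraries do not come from 1 animal, so the numbers were not taken as pairs. Deviations from the group means correlated at 0.06, 0.31 and 0.29 for same-numbered libraries and between -0.45 and 0.34 for differently numbered ones. No source used here says whether same-numbered libraries were handled together. With the replicate block, edgeR called 0 of the 10 genes, 7 were lower at an unadjusted p under 0.05 (12.5% of all genes) and the median log2 fold change of the 10 was -0.79, and DESeq2 called 3 (4.63% of all genes). The number of ratios without overlap, 12, was between 12 and 14 with each library left out and 12 with 1 count added. Tmod1 and Tmod2 had the fewest counts of the 10 genes, with at most 416 in a library, and whether depth limits them was not tested.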
